A study of Zea mays with 6 samples.

Results

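Ferredoxins are small iron-sulfur proteins of plastids that carry single electrons. In green leaves they take electrons from photosystem I and hand them to ferredoxin-NADP reductase, which makes NADPH, to ferredoxin-thioredoxin reductase, which passes the light signal on to plastid enzymes through thioredoxins, and to enzymes that reduce nitrite, sulfite and other compounds. In roots and other tissue without photosynthesis the flow at the reductase runs the other way, from NADPH to ferredoxin, and maize has separate ferredoxin and reductase isoforms for both situations.

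The maize genes considered here were fdx2, fdx3, FDX6, fnr1, L-FNRI and ftr1. They were chosen as every probe set paired with exactly 1 gene that carries one of these names as its symbol or RefSeq synonym, which gave 11 probe sets of 6 genes, out of 17555 probe sets on the array and 1108 genes that could be named. The gene fdx2 (NCBI gene 541619) encodes ferredoxin II, a leaf isoform known in maize from bundle sheath cells. The genes fdx3 (542276) and FDX6 (541612) encode ferredoxins III and VI, the isoforms known in maize from tissue without photosynthesis, of which ferredoxin VI is known as nitrate-inducible in roots. L-FNRI (542558) encodes a leaf-type ferredoxin-NADP reductase, and fnr1 (542713) a ferredoxin-NADP reductase whose symbol does not show whether it is the leaf or the root type. The gene ftr1 (542532) also carries the names FTRC and FTR-C, those of the catalytic subunit of ferredoxin-thioredoxin reductase.

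RNA came from leaf 3 of the inbred maize line A661, which had grown at 15 °C for 3 weeks and then at 25 °C for 1 week. After this the distal part of the leaf lacked chlorophyll (section CL) and the proximal part held it (section CC, the control), and the 2 cm of each section next to the border were taken in 3 biological replicates per section. All 6 samples share line, leaf, light regime and both temperature periods of the plants. The labels give the light as 228 µmol m-2 s-1, with 14 h light and 10 h dark. Chlorophyll content cannot be told apart from the position along the leaf. The same holds for what may go with position, such as tissue age or the temperature at which the tissue formed. Each sample gave 1 single-colour Affymetrix maize array with log2 RMA values, a scale on which a difference of 1 is a doubling.

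Array medians lay between 6.29 and 6.36. Arrays of a section correlated with each other at 0.989 to 0.995 (Pearson, across probe sets), and arrays of different sections at 0.963 to 0.982. Photosynthetic leaf markers were bright in both sections: pep1, the phosphoenolpyruvate carboxylase of mesophyll cells, read 13.27 in CL and 13.22 in CC, and rbcs1, the rubisco small subunit of bundle sheath cells, 12.81 and 12.90. The question here was whether the leaf isoforms and the isoforms known from non-photosynthetic tissue differed in the same way between CL and CC.

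Of the 6 genes, 3 were lower in the section without chlorophyll, among them an isoform of each kind. Among all 1108 genes, each by its brightest probe set, 19.9% were lower and 18.7% higher at a limma adjusted p under 0.05. FDX6 fell 2.04-fold, L-FNRI 1.44-fold and ftr1 by 1.46-fold and 1.48-fold on its 2 probe sets. The leaf ferredoxin fdx2 showed a log2 difference of 0.01, and fdx3 was 1.28-fold higher on 1 of its 2 probe sets, a call that was lost when any one of 5 arrays was left out. None of the 4 probe sets of fnr1 passed. At a limma adjusted p under 0.05 the count was therefore 1 of 11 probe sets higher and 4 lower in CL, beside 15.9% higher and 15.2% lower among all probe sets (31.1% in either direction). The median log2 difference, CL minus CC, was -0.20 over the 11 probe sets and -0.05 over all probe sets. With 1 probe set per gene it was -0.40 over the 6 genes and -0.08 over all genes.

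**Figure D1:**
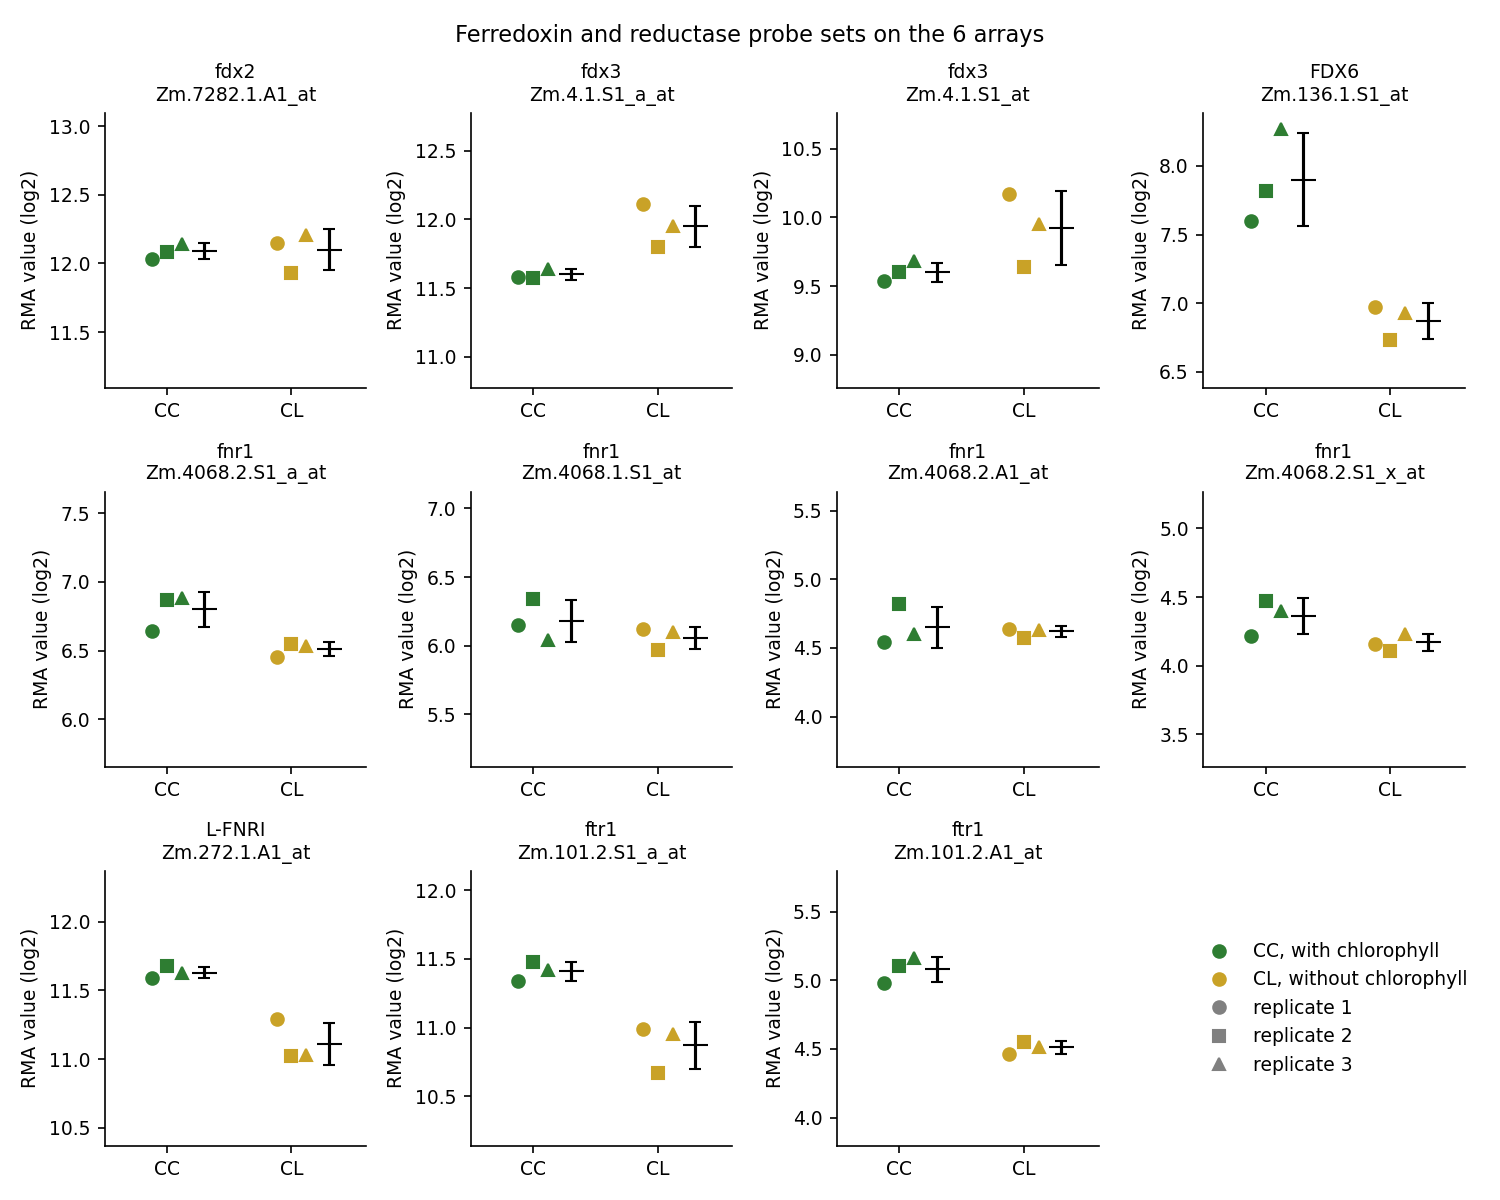
Log2 RMA values (vertical axis, each panel spans 2 log2 units) of the 11 probe sets on the 3 CC and 3 CL arrays, with each section's mean and SD as a bar beside the points. The CL points lie below every CC point for FDX6, L-FNRI, both ftr1 probe sets and 1 of the fnr1 probe sets, above them for 1 fdx3 probe set, and among them for the others.

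The ferredoxin genes gave 3 different pictures, of which FDX6, nitrate-inducible in maize roots, was the clearest. It read 6.97, 6.73 and 6.93 on CL replicates 1, 2 and 3 and 7.60, 7.82 and 8.27 on the CC replicates. Every CL array lay below every CC array, and the spread was wider in CC, with replicate 3 highest. The CL mean was 6.87 ± 0.13 and the CC mean 7.90 ± 0.34 (SD, n = 3 each), a log2 difference of -1.03 (SE 0.18, 95% interval -1.44 to -0.61, limma adjusted p = 0.0073). Its mean stood at percentile 62.4 of all probe sets, and only 2.7% of all probe sets had a more negative difference. The adjusted p stayed under 0.05 in all 17 alternative settings, at 0.0353 or lower, and the difference lay between -1.17 and -0.84 when 1 array was left out.

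The leaf ferredoxin gene fdx2 read 12.15, 11.93 and 12.21 in CL and 12.03, 12.08 and 12.14 in CC. The sections overlapped, and CL held both the highest and the lowest array. The log2 difference was 0.01 (SE 0.10, 95% interval -0.23 to 0.25, limma adjusted p = 0.953). Its mean stood at percentile 99.1 of all probe sets, at the bright end of the arrays. Its sign turned with single arrays, between -0.05 and 0.09, and the difference was -0.04 after median centring and 0.12 after a further quantile normalization.

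The gene fdx3, whose ferredoxin III is known from non-photosynthetic tissue, was measured by 2 probe sets designed on the same sequence. Their means stood at percentiles 98.7 and 90 of all probe sets, bright in both leaf sections. The brighter one read 12.11, 11.80 and 11.95 in CL and 11.58, 11.57 and 11.64 in CC. All CL arrays lay above all CC arrays, and the CC arrays were within 0.07 of each other. Its log2 difference was 0.36 (SE 0.10, 95% interval 0.12 to 0.59, limma adjusted p = 0.0359). The dimmer one read 10.17, 9.64 and 9.95 in CL and 9.54, 9.60 and 9.68 in CC. Here CL replicate 2 fell among the CC arrays, and the difference of 0.32 (SE 0.14) did not pass (limma adjusted p = 0.129).

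The call on the brighter fdx3 probe set held without CL replicate 2 (adjusted p = 0.0349) and was lost without any of the other 5 arrays. The adjusted p was 0.0779 without CL replicate 1, 0.107 without CL replicate 3, 0.069 without CC replicate 1, 0.107 without CC replicate 2 and 0.0702 without CC replicate 3. It was 0.0545 after centring the arrays on their medians and 0.0678 for the mean of both probe sets. Its log2 difference stayed positive throughout, between 0.28 and 0.43 with 1 array left out. Without CL replicate 2 the dimmer probe set passed as well, with a difference of 0.46 and an adjusted p of 0.0395.

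**Figure D2:**
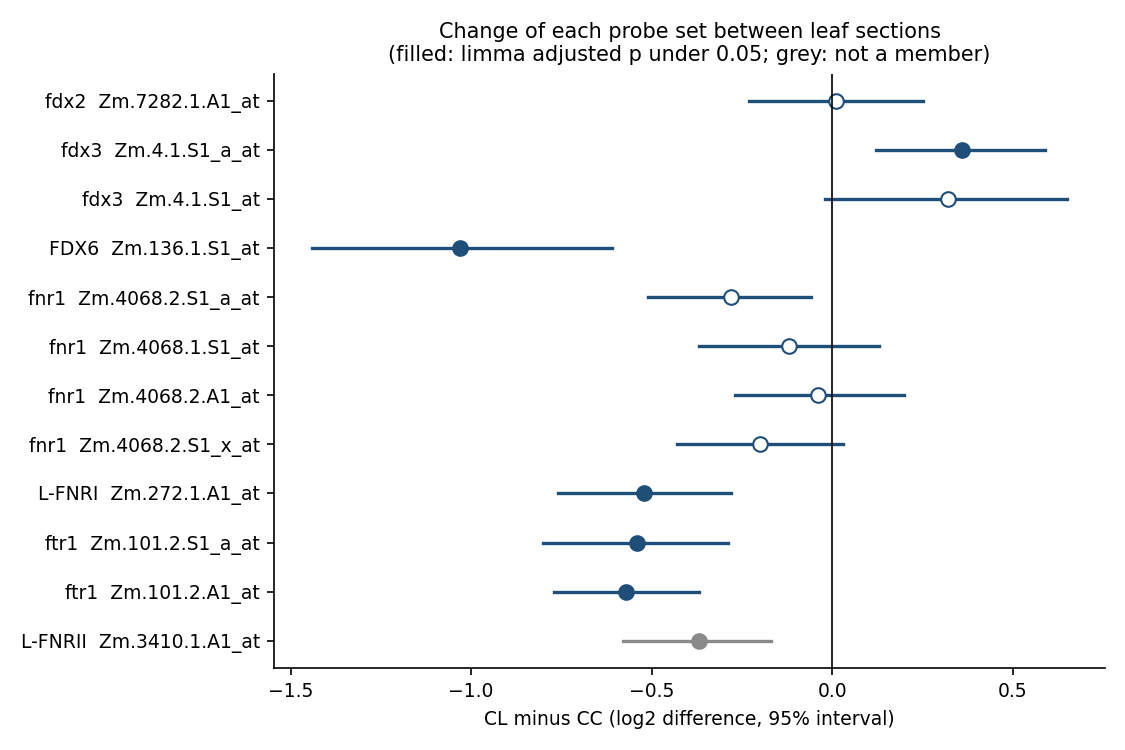
Log2 difference, CL minus CC, of each probe set with its 95% interval from the limma fit (horizontal axis), filled where the adjusted p is under 0.05, with the second leaf-type reductase L-FNRII in grey. FDX6 lies farthest from 0 at -1.03, L-FNRI and both ftr1 probe sets lie between -0.57 and -0.52, and the interval of fdx2 runs from -0.23 to 0.25.

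Leaf-type ferredoxin-NADP reductase fell. L-FNRI read 11.29, 11.02 and 11.03 in CL and 11.59, 11.68 and 11.63 in CC. All CL arrays lay below all CC arrays, with CL replicate 1 nearest to them. The means were 11.11 ± 0.15 and 11.63 ± 0.04 (SD, n = 3 each), a log2 difference of -0.52 (SE 0.10, 95% interval -0.76 to -0.28, limma adjusted p = 0.0108). Without CL replicate 3 the adjusted p was 0.0526, with a difference of -0.48, and it stayed under 0.05 without any other single array.

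A second leaf-type reductase, L-FNRII (NCBI gene 541626), is not among the 6 genes but fell as well. It read 12.72, 12.50 and 12.60 in CL and 13.00, 12.95 and 12.98 in CC. The CL arrays again lay below all CC arrays, and the log2 difference was -0.37 (SE 0.09, limma adjusted p = 0.0199). Its adjusted p was 0.0597 without CL replicate 2, 0.0768 without CL replicate 3, 0.0597 without CC replicate 2 and 0.0525 without CC replicate 3. Whether L-FNRI and L-FNRII differed in their change was not tested.

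The other reductase gene of the set, fnr1, had 4 probe sets, all with a lower mean in CL and none past the threshold. The brightest read 6.45, 6.55 and 6.53 in CL and 6.64, 6.87 and 6.88 in CC. The sections did not overlap, but the log2 difference of -0.28 (SE 0.10, 95% interval -0.51 to -0.06) had a limma adjusted p of 0.0617. That p was 0.0303 without CC replicate 1, 0.0477 after median centring and 0.041 after a further quantile normalization. Without any other single array it was 0.112 to 0.176, and for the mean of the 4 probe sets it was 0.194. The brightest probe set passed in 5 of 17 alternative settings.

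The remaining fnr1 probe sets overlapped between sections and had log2 differences, from the brighter to the dimmest, of -0.12, -0.04 and -0.20, with adjusted p between 0.16 and 0.791. The dimmest carries the array's suffix for sets in which some probes also match other sequences. Of the 4, 3 were designed on the same sequence, so they are not independent readings of the gene. Among those 3, the set at -0.04 carries A1 in its name and the others S1. Whether that set reads the fnr1 transcript was not tested. The means of the 4 probe sets stood between percentiles 27.7 and 53.6 of all probe sets, in the dim to middle range of the arrays. The dimmest lay near the lower quartile of the arrays (3.95 to 4.15).

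Ferredoxin-thioredoxin reductase fell on both of its probe sets, which were designed on the same sequence and are not independent readings. Their names differ, with S1 for the bright one and A1 for the dim one. Whether the dim one reads the ftr1 transcript was not tested. The bright one read 10.99, 10.67 and 10.95 in CL and 11.34, 11.48 and 11.42 in CC. The dim one read 4.46, 4.55 and 4.51 in CL and 4.98, 5.10 and 5.16 in CC. On both, every CL array lay below every CC array, at opposite ends of the brightness range (percentiles 97.3 and 34.2 of all probe sets). Their log2 differences were -0.54 (SE 0.11, 95% interval -0.80 to -0.29, limma adjusted p = 0.0121) and -0.57 (SE 0.09, 95% interval -0.77 to -0.37, limma adjusted p = 0.00526). With 1 array left out the bright probe set had adjusted p of 0.0157 to 0.0482 and the dim one of 0.00764 to 0.0301.

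In all, 5 of the 11 probe sets had every CL array below every CC array, beside 26.8% of all probe sets, and 1 had every CL array above, beside 22.9%. The 6 of 11 in either direction compare with 49.6% of all probe sets, a share near that of the members.

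**Figure D3:**
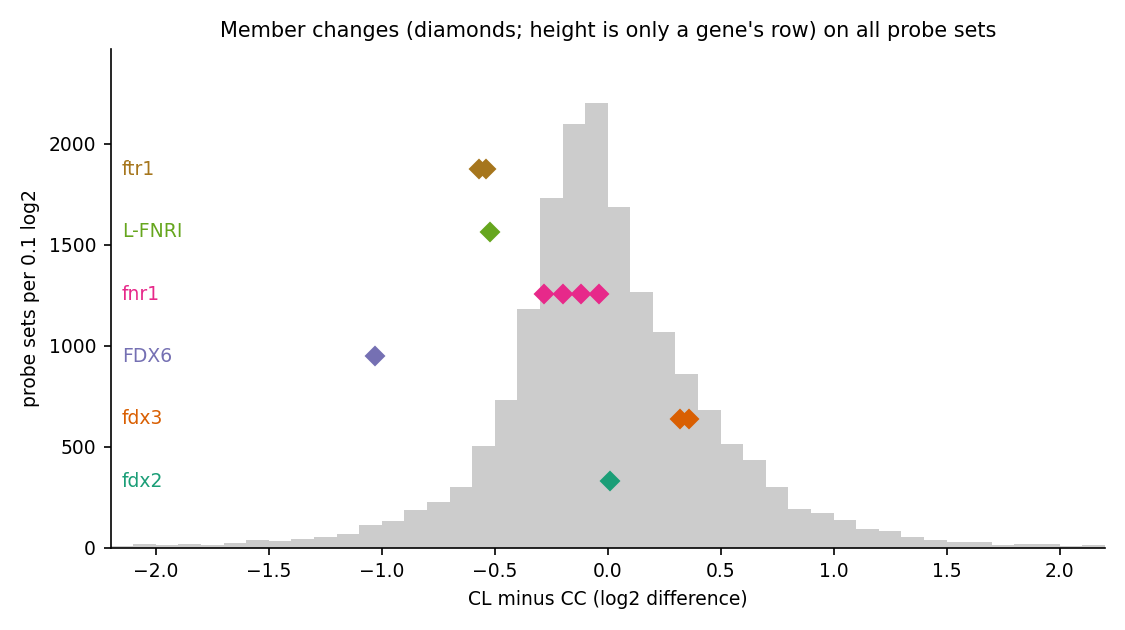
Number of probe sets per 0.1 log2 (vertical axis, grey) by their log2 difference CL minus CC (horizontal axis) for the 17555 probe sets, cropped at 2.2 on either side, with the 11 member probe sets as diamonds in 1 row per gene. FDX6 at -1.03 lies in the lower tail, the ftr1 and L-FNRI probe sets lie on the lower shoulder, and those of fnr1 and fdx2 lie in the bulk.

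Whether isoforms changed unequally was asked within arrays, from the difference between 2 genes on each array, with the brightest probe set of each gene. The 5 pairs were L-FNRI with fnr1, fdx2 with fdx3, fdx2 with FDX6, fdx3 with FDX6, and ftr1 with L-FNRI. An exact two-sided permutation test of 3 against 3 arrays cannot give a p under 0.1, or 0.167 adjusted over these 5 pairs, so none could pass and the values are given for their size.

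Of the 5 pairs, the ferredoxins known from non-photosynthetic tissue stood furthest apart. Set against the CC mean, the difference fdx3 minus FDX6 was 1.45, 1.38 and 1.32 on the CL arrays and 0.28, 0.05 and -0.33 on the CC arrays. The sections were apart by more than the spread within either, with a mean of 1.38 (exact permutation p = 0.1). For fdx2 minus FDX6 the CL arrays lay between 0.999 and 1.097 and the CC arrays between -0.315 and 0.24, with a mean of 1.04 (exact permutation p = 0.1). Both genes were lowest on CL replicate 2, and their difference varied less over the CL arrays (SD 0.05) than either gene did.

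The leaf ferredoxin fdx2 against fdx3 gave -0.45, -0.37 and -0.22 on the CL arrays and -0.04, 0.03 and 0.02 on the CC arrays, apart as well, with a mean of -0.35 (exact permutation p = 0.1). For L-FNRI against fnr1 the sections overlapped, at 0.00, -0.37 and -0.34 in CL and 0.11, -0.03 and -0.08 in CC, with a mean of -0.24 (exact permutation p = 0.3). With the 3 other, dimmer fnr1 probe sets in turn the mean was -0.40, -0.48 and -0.33. Each was at the floor of the test (exact permutation p = 0.1), which cannot pass. Those probe sets themselves differed by only -0.12, -0.04 and -0.20 between sections. For ftr1 against L-FNRI the mean was -0.02, with SDs of 0.14 in CL and 0.02 in CC (exact permutation p = 0.9). The 2 ferredoxins known from non-photosynthetic tissue thus held the most negative difference of the 6 genes (FDX6) and the most positive (fdx3).

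**Figure D4:**
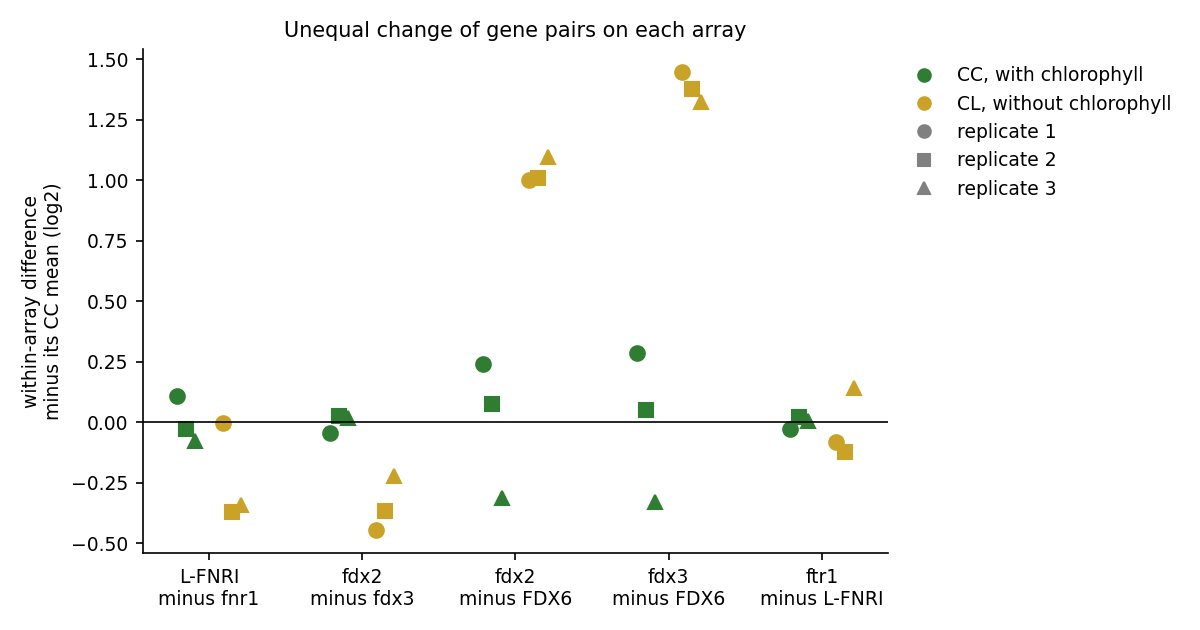
Difference of 2 genes' log2 values on each array, minus the mean of that difference over the CC arrays (vertical axis), for 5 gene pairs. The CL points lie above all CC points for both pairs with FDX6, below them for fdx2 minus fdx3, and among them for L-FNRI minus fnr1 and ftr1 minus L-FNRI.

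The array with the lowest value was mostly the same across these genes. CL replicate 2 was the lowest CL array for 9 of the 11 probe sets, beside 34.3% of all probe sets and 51.0% of the 565 with a mean of at least 11. CC replicate 1 was the lowest CC array for 9 of the 11, beside 37.3% of all probe sets. The exceptions in CL were the brightest fnr1 probe set and the dim ftr1 probe set, lowest on CL replicate 1.

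Genes around ferredoxin were taken from 6 lists of partners, targets and suppliers matched by symbol, which gave 32 genes beside the 6. Of these, 2 were higher and 10 lower in CL and 20 did not pass, where 18.7% of all 1108 genes were higher and 19.9% lower by the same rule (38.6% in either direction). The median log2 difference of the 32 genes was -0.15, and that of all genes was -0.08. The 32 include mpao1 and me3, both matched only through synonyms, and mpao1 is among the 10 lower. They also include pdh2 and pgl1, whose names do not show the listed role. The count of lower genes was 5 without CL replicate 2, CL replicate 3 or CC replicate 2, and 6 without CC replicate 3, and that of higher genes was 1 without CL replicate 2, CL replicate 3 or any single CC array.

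On the side that feeds electrons to ferredoxin, 1 of 3 photosystem I genes fell. This was psad1, whose subunit PsaD forms the docking site of ferredoxin on photosystem I. It read 10.54, 10.05 and 9.77 in CL and 11.56, 11.98 and 12.03 in CC, a log2 difference of -1.74 (SE 0.22, limma adjusted p = 0.00329). The subunit genes psah1 (-0.14) and psan1 (-0.10) did not pass. Both had every CL array below every CC array, as had 26.8% of all probe sets. They stood at percentiles 99.9 and 100 of all probe sets, and whether the bright end of the arrays limited their differences was not tested.

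Of 6 genes for thioredoxins and enzymes regulated through them, 2 fell and 0 rose. The thioredoxin h gene trxh1, whose family acts mainly outside plastids, had a log2 difference of -0.45 (SE 0.13, limma adjusted p = 0.0429), a call that held without CL replicate 1 (adjusted p = 0.0355) and was lost without any other single array, at 0.0563 to 0.122. Rubisco activase, rca1, changed by -0.32 (SE 0.08, limma adjusted p = 0.0294), with an adjusted p of 0.0597 to 0.0814 without any array except CL replicate 1. The plastid thioredoxin m gene trm1 (-0.17), the NADP-malate dehydrogenase gene mdh6 (-0.05), a classical target of thioredoxin in C4 leaves, and the plastid glyceraldehyde-3-phosphate dehydrogenase gene gpa1 (-0.21) did not pass. Neither did trh2, at -0.01.

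Of 12 genes matched to nitrogen and sulfur assimilation, 3 fell and 1 rose. Plants reduce nitrate to nitrite with nitrate reductase, nitrite to ammonium with ferredoxin, and bind the ammonium with glutamine synthetase. The nitrate reductase gene NNR1 read 8.11, 6.85 and 6.36 in CL and 8.51, 9.43 and 10.11 in CC. Its sections were apart, by a log2 difference of -2.24 (SE 0.53, limma adjusted p = 0.0208), with adjusted p of 0.0602 to 0.0725 without CL replicate 2, CL replicate 3, CC replicate 2 or CC replicate 3. The plastid glutamine synthetase gene gln1, also named gs2, fell by 1.01 (SE 0.09, limma adjusted p = 0.00159) and the nitrate transporter gene Nrt1.1 by 0.72 (SE 0.13, limma adjusted p = 0.00764).

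The gene for nitrite reductase itself, NIR, which takes its electrons directly from ferredoxin, read 7.58, 7.44 and 6.64 in CL and 7.55, 8.59 and 9.0 in CC. CC replicate 1 lay among the CL arrays, and the log2 difference of -1.16 (SE 0.40) did not pass (limma adjusted p = 0.0666), though it was -1.57 with an adjusted p of 0.0143 without CC replicate 1. A dimmer NIR probe set had a difference of -0.08. The ferredoxin-dependent sulfite reductase gene sir differed by 0.19 and did not pass, and gln2, another glutamine synthetase gene, rose by 0.67 (SE 0.17, limma adjusted p = 0.0282), with adjusted p of 0.0541 to 0.0894 without any single array other than CL replicate 1. Of the other members, nar (-0.81), nrt2 (-0.43), GLN6 (-0.16), gln3 (-0.09), NR (-0.01) and gln5 (0.08) did not pass. A second, dimmer probe set of the nitrate reductase gene NR stood at percentile 4.0 of all probe sets. It had every CL array below every CC array and a difference of -0.61 (limma adjusted p = 0.0214). Dimmer probe sets of nar (-0.05), Nrt1.1 (-0.06) and sir (-0.33 and -0.01) did not pass. Whether the dimmer probe sets read the transcripts of these genes was not tested.

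On the CC arrays, replicate 3 was highest and replicate 1 lowest for FDX6 and for 10 of the 32 listed genes, among them NNR1, NIR and Nrt1.1 but also psad1 and fad7, and not gln1. This order was found in 22.1% of all probe sets and in 32.9% of those called lower in CL, and it was looked at after the values were seen.

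**Figure D5:**
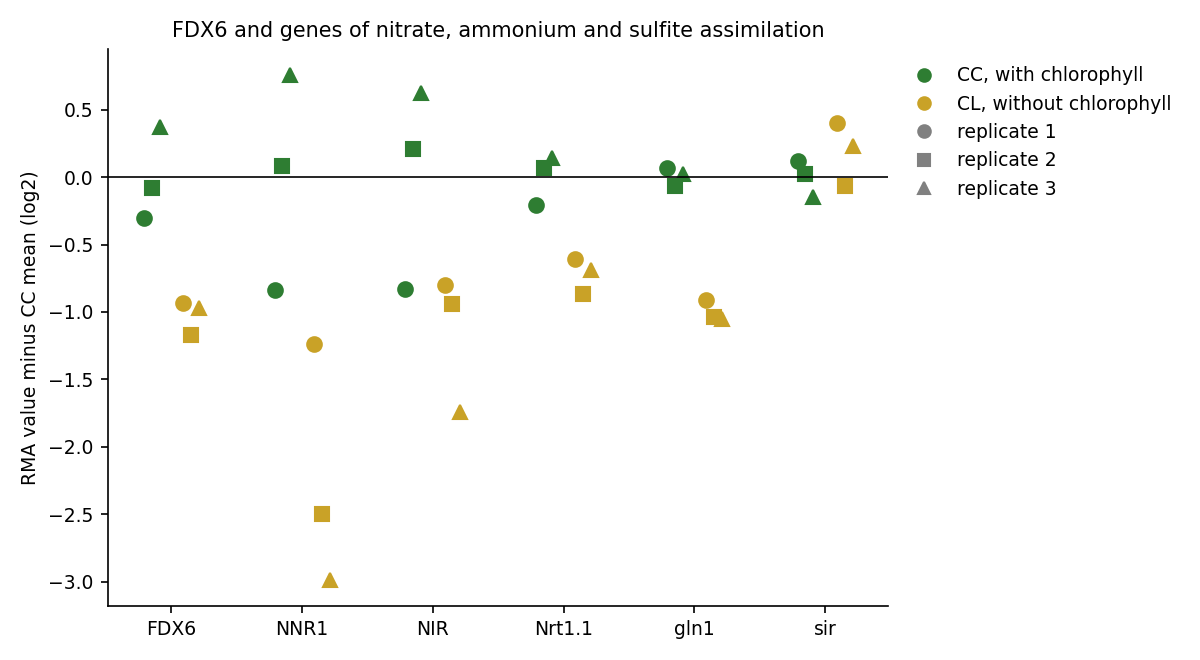
Log2 RMA value minus the gene's CC mean (vertical axis) on each array for FDX6 and 5 of the 12 genes matched to nitrogen and sulfur assimilation. Shown are the 3 called lower, with NIR and sir, and not gln2, which was called higher, or the others that did not pass. The CL points lie below all CC points for FDX6, NNR1, Nrt1.1 and gln1, overlap them through CC replicate 1 for NIR, and overlap them for sir.

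Among 7 genes matched as other users of plastid ferredoxin, 3 fell and 1 rose. The omega-3 fatty acid desaturase genes of plastids, FAD8 and fad7, fell by 1.31 (SE 0.19, limma adjusted p = 0.00439) and 0.84 (SE 0.18, limma adjusted p = 0.0141). The call on fad7 was lost at adjusted p of 0.0505 to 0.0584 without CL replicate 2, CL replicate 3 or CC replicate 2. BCH2, a carotene hydroxylase by name, read 10.70, 11.09 and 10.33 in CL and 9.16, 9.12 and 9.76 in CC and rose by 1.36 (SE 0.24, limma adjusted p = 0.00796). The third fall, mpao1 at -1.28, was matched through the synonym PAO and encodes a polyamine oxidase that does not use ferredoxin.

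The genes Hds1 of the plastid isoprenoid pathway (-0.13), elm1, which makes the phytochrome chromophore (-0.07), and lls1, a ferredoxin-dependent oxygenase of chlorophyll breakdown (-0.08), did not pass. Of 3 genes matched by name to the supply of NADPH outside photosynthesis, none passed. The gene matched as pgd2, which also carries the name pdh2, had 0.29 (limma adjusted p = 0.39). The gene pgl1, at percentile 9.6 of all probe sets, had -0.03. Their names do not show that either acts in this supply. The remaining gene, me3, had 0.03 and was matched through the synonym ME1, although it is the NADP-malic enzyme of C4 photosynthesis.

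In these bulk samples fewer cells of a type and less RNA per cell cannot be told apart. Beside the marker counts that follow, 18.7% of all 1108 genes were higher and 19.9% lower in CL by the same rule. Bundle sheath markers beside fdx2 were rbcs1 (-0.08), me3 (0.03) and rca1, of which 1 of 3 fell and 0 rose, and their summed linear level was 20000 to 20300 in CL and 21100 to 21700 in CC. Of 6 mesophyll markers 2 rose (ppt1 at 0.75, and pdlk1 at 0.56, a kinase matched through the synonym PDK1) and 1 fell (OEE3 at -0.44), with a summed linear level of 33800 to 35600 in CL and 36000 to 37200 in CC. A dimmer probe set of pdlk1, at 0.28, did not pass (limma adjusted p = 0.119). For the mesophyll marker pdk1 the brightest probe set, at 0.05, did not pass, and a dimmer one rose by 0.29 (limma adjusted p = 0.0398). RMA values have no 0, and by brightest probe set the dimmest marker of these 2 lists was pdlk1. The part of these markers in the changes of L-FNRI, ftr1 and FDX6 was not tested.

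Of 4 epidermis markers 2 fell, with sums of 590 to 750 in CL and 651 to 1130 in CC, and of 2 vascular markers 1 fell, with sums of 898 to 1420 in CL and 1520 to 2170 in CC. Of 5 markers of dividing cells 2 rose, with sums of 459 to 512 in CL and 353 to 385 in CC, and the 1 guard cell marker did not pass, at 24.2 to 28.6 in CL and 24.9 to 39.7 in CC. With so few markers per list, and the shares over all genes given above, these counts are not read as changes of cell types. The part of these markers was likewise not tested.

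The genes most like each member were found by the root mean square difference of profiles over the 6 arrays, each centred on its mean, among 963 genes with an informative name. For fdx2 the nearest were vp9, the zeta-carotene desaturase gene, at 0.033 and ohp2 at 0.049 on the log2 scale, both without a difference between sections that passed. For the brighter fdx3 probe set they were rps21b, a ribosomal protein gene, at 0.031 and der2, a derlin gene, at 0.066, and rps21b came second for the dimmer probe set too, at 0.082, after rad51b at 0.072. FDX6 had no neighbour nearer than TPS9 at 0.132 and the alpha-expansin gene EXPA5 at 0.134, each with a log2 difference of -0.94.

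For L-FNRI the nearest were yptm3 at 0.052 and pdlk2 at 0.054. The bright ftr1 probe set lay nearest to vdac1b, a mitochondrial porin gene, at 0.025 and to bt2, a subunit gene of ADP-glucose pyrophosphorylase, at 0.063. The dim one lay nearest to the aquaporin gene PIP1-1 at 0.052 and the plastid sigma factor gene sig3 at 0.054. The brightest fnr1 probe set lay nearest to PG2C at 0.042 and pk8-a at 0.046, and the other 3 had 6 different neighbours at 0.019 to 0.043. The median root mean square difference over all candidates was 0.232 to 0.539, and likeness over 6 arrays in 2 sections is given as a description.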

How the data were processed

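Per the labels' protocols, 250 ng of total RNA per sample were biotin-labelled with a kit that starts at the 3' end. The deposited values are log2 RMA values, made by the authors with RMA, Affymetrix Expression Console and limma, per the submitters' processing notes. Their versions and any filter were not given in the sources used here. Differences at the dim end are compressed by RMA, and detection above background was not tested, since scanner files were not used here. Saturation at the bright end, where pep1, me3, pdk1 and rbcs1 also lay, was not tested either. All 6 arrays were used, with 0 columns of sample values unused and 0 missing values. The number of arrays limits the precision.

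Names of probe sets came from an older platform annotation and were updated by gene ID from RefSeq's table for Zm-B73-REFERENCE-NAM-5.0: 1452 had 1 gene, 1 had several and 16102 had none named here, and 1060 of the 1108 genes were in RefSeq's table. Percentiles place a probe set's brightness on the arrays, and marker sums add linear values over probe sets; neither compares transcript levels between genes.

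Sections were compared with limma (limma 3.58.1, R 4.3.3; lmFit and eBayes) on all probe sets, CL minus CC, without a block, with Benjamini-Hochberg adjustment over all 17555 and a threshold of 0.05. SE is the moderated standard error. Listed genes were represented by their brightest probe set. The fit was tested on simulated data. Replicates differed by an SD of 0.251 to 0.387 over probe sets, and nothing marked 2 arrays as copies.

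The members, lists and alternatives were chosen with earlier results of these data known. Named genes were the members, list members that passed and the 2 nearest profiles per member probe set; NIR, list members that did not pass and the markers named in the text were added for completeness after their values were seen. Alternatives were median centring, a further quantile normalization, a replicate block, an intensity trend, a robust variance, array weights, filters that removed the dimmest 25% or 50%, a threshold of 0.01, 1 value per gene in 2 ways, and each array left out.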

Additional observations from a re-analysis of the deposited data

How the results depend on the processing

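The 4 member probe sets lower in CL were 2 with the replicate block and 2 at an adjusted p under 0.01, and 3 to 5 with 1 array left out. The 1 probe set higher in CL was 0 with median centring, with the replicate block, at 0.01 and with probe sets averaged per gene, 2 with array weights, and 0 to 2 with 1 array left out. Counts of all probe sets higher and lower in CL were 1020 and 850 with the replicate block, 4388 and 4940 with array weights, and 1126 and 867 at 0.01. With 1 probe set per gene they were 209 and 224 genes and with probe sets averaged per gene 205 and 224, since fewer features were tested. Without the dimmest 50% the lower count was 1656. With 1 array left out they were 1308 to 2818 and 1082 to 2865.

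With the replicate block the adjusted p was 0.0603 for L-FNRI, 0.0638 for the bright and 0.0414 for the dim ftr1 probe set, 0.0353 for FDX6 and 0.103 for the brighter fdx3 probe set. The labels do not say that numbers mark shared plants. The deviations of same-numbered samples from their section means correlated at -0.54, -0.35 and -0.39, which gives no sign of pairing and does not show whether sections shared a leaf. The sign turned for fdx2 with median centring (-0.04) and with 1 array left out (-0.05 to 0.09). It also turned for the third-brightest fnr1 probe set with quantile normalization (0.07) and with 1 array left out (-0.10 to 0.05). The difference between ftr1 and L-FNRI turned with 1 array left out (-0.10 to 0.03). The causes were not tested. Median centring shifted every log2 difference by -0.045. Of the 13 listed genes tried, psad1, gln1, Nrt1.1, BCH2, FAD8 and mpao1 passed in every setting, and trxh1, rca1, L-FNRII, NNR1, gln2 and fad7 each lost the call in 5 to 8 of 16.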
